A study of Rattus norvegicus with 12 samples.

Results

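Glycolysis and the hypoxia response were followed through 35 genes in rat cells labelled PC12, a line from an adrenal chromaffin tumour that is widely used as a neuron-like culture. The genes were chosen by symbol, with earlier results of these data known. They cover glucose carriers, the glycolytic enzymes from hexokinase to pyruvate kinase, and lactate handling. They also cover targets of hypoxia-inducible factor (HIF) in mitophagy, collagen hydroxylation, signalling and acid handling. Of the 35, 34 had a row in the count table of 30454 genes, and all 34 passed the filter on low counts that left 13692 genes to test. Gapdh had no row under that symbol and was not analysed here.

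RNA was sequenced from 12 libraries in 3 groups of 4. The rTMS-MSCs group went through oxygen and glucose deprivation with reoxygenation and received mesenchymal stem cells (MSCs) together with repetitive transcranial magnetic stimulation (rTMS) at 10 Hz. The MSCs group went through the same deprivation and received the stem cells without stimulation. The OGDR group had deprivation and reoxygenation alone. All groups were taken at 48 h and all had been deprived, so no comparison here sets deprived against undeprived cells. The series text speaks of 20 samples and a microarray, while the labels describe the 12 sequencing libraries used here. The labels do not say how the stem cells were brought together with the PC12 cells, whether they were removed before extraction, or whether libraries of a group came from separate cultures, so the p-values cover no more than the spread among these libraries.

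Glycolysis splits glucose into pyruvate in the cytosol and yields ATP without oxygen. When oxygen is short, the alpha subunits of HIF escape degradation, pair with Arnt and bind a short DNA core near genes for glucose carriers, glycolytic enzymes, lactate export and mitophagy. Many of the enzymes exist as isoenzymes encoded by separate genes, of which only some are strong HIF targets, and ischaemic neural cells depend on this pathway while respiration is limited.

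The promoters of 5 genes are shown because they span the responses described further on. Bnip3 and Slc2a1 fell in both treated groups, Aldoc and Adm rose in both, and Ldha rose in rTMS-MSCs against OGDR. Each is the 250 bases before a RefSeq transcription start on the rat build GRCr8, read on the gene's own strand, with capitals marking the core of the HIF site in its ACGTG or GCGTG form on either strand (CACGT or CACGC when read in reverse).
Bnip3, chr1:203154963-203155212, minus strand: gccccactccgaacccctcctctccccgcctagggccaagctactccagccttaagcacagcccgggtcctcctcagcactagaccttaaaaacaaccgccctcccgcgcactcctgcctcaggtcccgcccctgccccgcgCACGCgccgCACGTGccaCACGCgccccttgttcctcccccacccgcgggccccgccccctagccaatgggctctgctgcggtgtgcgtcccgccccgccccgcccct
Slc2a1, chr5:138002272-138002521, plus strand: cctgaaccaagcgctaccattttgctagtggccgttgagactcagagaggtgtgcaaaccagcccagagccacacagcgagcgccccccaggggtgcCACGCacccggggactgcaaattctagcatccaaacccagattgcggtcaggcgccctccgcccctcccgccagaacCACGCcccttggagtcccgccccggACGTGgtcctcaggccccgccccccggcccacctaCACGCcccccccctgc
Ldha, chr1:106507842-106508091, plus strand: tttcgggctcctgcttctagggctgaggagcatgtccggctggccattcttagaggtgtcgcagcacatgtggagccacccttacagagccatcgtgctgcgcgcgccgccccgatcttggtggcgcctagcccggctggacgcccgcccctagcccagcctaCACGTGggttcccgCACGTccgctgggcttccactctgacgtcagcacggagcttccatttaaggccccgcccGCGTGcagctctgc
Aldoc, chr10:63715294-63715543, plus strand: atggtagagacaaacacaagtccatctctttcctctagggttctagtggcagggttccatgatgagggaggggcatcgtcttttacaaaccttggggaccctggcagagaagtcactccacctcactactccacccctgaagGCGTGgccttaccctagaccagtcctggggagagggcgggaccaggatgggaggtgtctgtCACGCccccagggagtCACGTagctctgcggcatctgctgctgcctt
Adm, chr1:174179950-174180199, plus strand: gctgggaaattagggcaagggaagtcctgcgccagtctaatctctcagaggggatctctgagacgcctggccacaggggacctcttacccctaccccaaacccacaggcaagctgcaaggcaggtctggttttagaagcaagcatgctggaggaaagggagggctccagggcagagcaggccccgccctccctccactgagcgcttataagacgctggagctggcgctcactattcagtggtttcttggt
Bnip3 held 4 matches, Slc2a1 4, Ldha 4, Aldoc 3 and Adm 0, where the palindrome CACGTG counts once on each strand. RefSeq promoters were at hand for 31 of the 35 genes, and 21 of these (67.7%) held at least 1 match, against 56.8% of 9773 tested genes with a promoter and 39.6% of all 27457 genes with one. A match was present in 9 of 14 genes that fell in MSCs against OGDR, in 3 of 5 that rose and in 8 of 11 that were not called, leaving out the untested Gapdh, where genes with several starts count by the start with the most matches. These are letters in a window, and they say nothing of whether a factor was bound.

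Counts in genes ran from 18246250 to 20471838 per library, and levels are given as CPM, the counts of a gene scaled to a common library total, with library sizes adjusted by the trimmed mean of M values (TMM). Levels were not divided by gene length, so the level of a gene is compared between groups. Sums and ratios over genes depend on gene length, and are likewise compared only between groups. On the second principal component, which held 18.11% of the variance, libraries rTMS-MSCs 3 and MSCs 3 lay at the opposite ends, and results that rest on them are given with and without them. The share of counts from the mitochondrial genome was 3.06% ± 0.188 in rTMS-MSCs, 2.76% ± 0.209 in MSCs and 3.42% ± 0.210 in OGDR (SD, n = 4 each), with a 2-sided exact permutation p of 0.0286 for MSCs against OGDR, the smallest that 4 against 4 allows, and 0.0857 after adjustment over the 3 pairs. Of 14 chromaffin markers, 7 stayed under 1 CPM in every library, and Ddc and Hand2 had no counts at all. The summed chromaffin level was 210.5 to 227 CPM in rTMS-MSCs, 199 to 246 CPM in MSCs and 284 to 351 CPM in OGDR. Most of it was Scg2, at a mean of 207 CPM in rTMS-MSCs, 203 CPM in MSCs and 293 CPM in OGDR. Of the 14 chromaffin markers, 7 were tested, of which 1 was called higher and 1 lower in each treated group against OGDR. Markers of Schwann and glial cells summed to 1245 to 1346 CPM in rTMS-MSCs, 1253 to 1332 CPM in MSCs and 1044 to 1137 CPM in OGDR. Of these 12 markers, 10 were tested. In MSCs against OGDR, 6 were called higher and 0 lower, and in rTMS-MSCs against OGDR 6 higher and 1 lower. Stromal markers, which mesenchymal stem cells would carry, summed to 469 to 581 CPM in rTMS-MSCs, 571 to 636 CPM in MSCs and 581 to 619 CPM in OGDR, with Lum at 0. Of the 14 stromal markers, 11 were tested. In MSCs against OGDR, 4 were called higher and 1 lower, and in rTMS-MSCs against OGDR 3 higher and 2 lower. Of all tested genes, 11.6% were called higher and 8.63% lower in MSCs against OGDR. In rTMS-MSCs against OGDR it was 16.2% each way. The stromal marker Pdgfrb averaged 51.2 CPM in rTMS-MSCs, 58.5 CPM in MSCs and 42.2 CPM in OGDR. Prrx1 went the other way, at 102 CPM in rTMS-MSCs, 134 CPM in MSCs and 152 CPM in OGDR. Pdgfra was lowest in rTMS-MSCs, at 241 CPM, with 292 CPM in MSCs and 286 CPM in OGDR. The labelled cell type was thus borne out by only part of its markers. In bulk samples, fewer cells of a type and less RNA per cell cannot be told apart, and the part of these marker shifts in the results that follow was not tested.

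With stem cells, more of these genes were called lower than higher. In MSCs against OGDR, 23 of the 34 genes passed the edgeR quasi-likelihood test at a Benjamini-Hochberg adjusted p under 0.05, or 67.6%, where 20.2% of all tested genes did. Of these, 17 fell (50.0%, against 8.63% of all genes) and 6 rose (17.6%, against 11.6% of all genes). The groups did not overlap for 22 of the 34 genes (64.7%, against 24.7% of all genes). The median log2 fold change of the 34 was -0.17, and that of all tested genes was -0.002. Because the genes were chosen with earlier results known, their shares beside those of all genes are a description and no test.

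The 6 that rose were Hk1, Pfkm, Pfkfb4, Aldoc, Ndrg1 and Adm, so the pathway did not move as 1 block. In rTMS-MSCs against OGDR, 20 of 34 were called (58.8%, against 32.4% of all genes), with 12 lower (35.3%, against 16.2%) and 8 higher (23.5%, against 16.2%), and 20 did not overlap (58.8%, against 30.3%). These contrasts share the OGDR libraries and are not independent of each other. The choice of genes limits these shares in the same way.

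**Figure D1:**
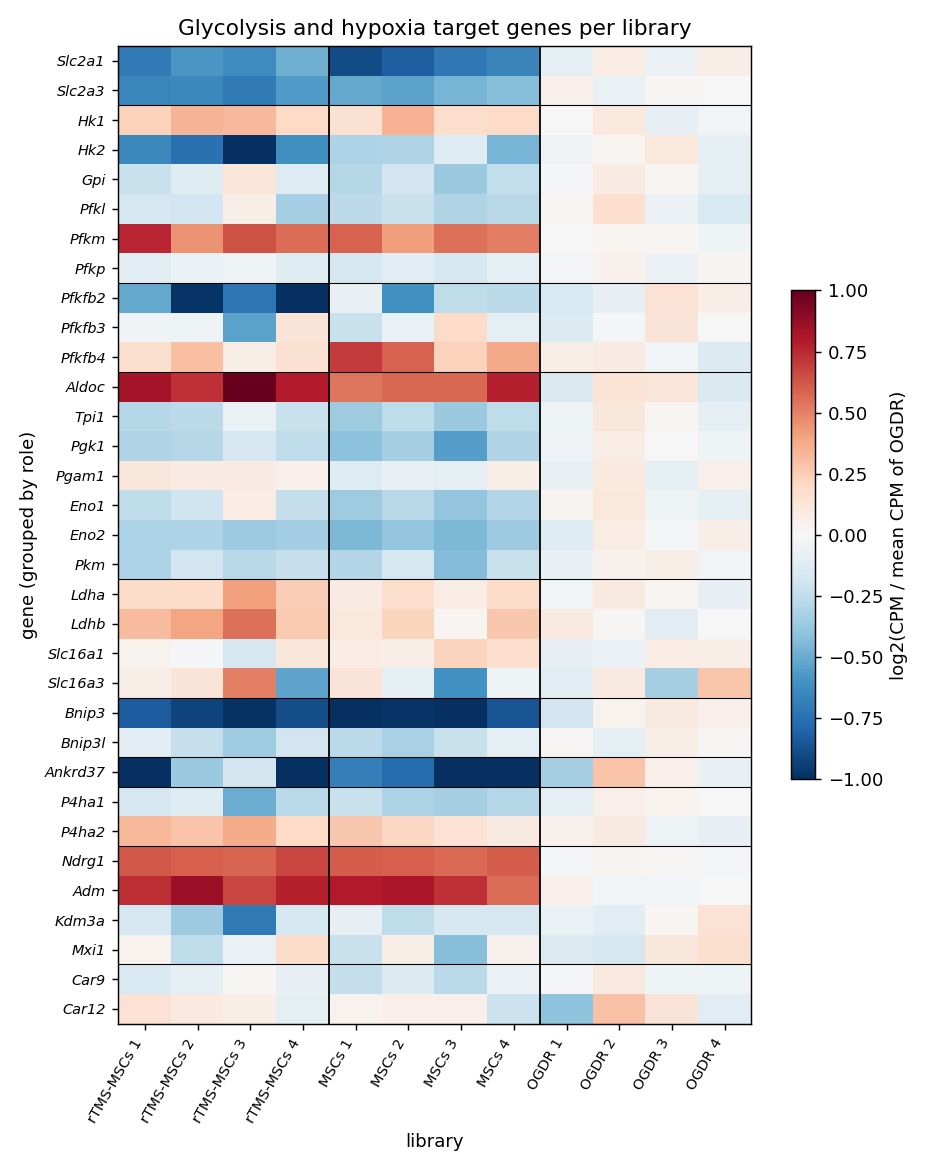
Level of 33 genes (rows, grouped by role) in each of the 12 libraries (columns), as log2 of CPM over the mean CPM of OGDR. Colours stop at -1 and 1, and Aldoa is left out for its low counts. Slc2a1, Slc2a3, Hk2 and Bnip3 are blue and Pfkm, Aldoc, Ndrg1 and Adm are red in all 8 treated libraries.

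Both glucose carriers fell in both treated groups. Slc2a1 (ENSRNOG00000007284) encodes GLUT1, the widespread basal glucose carrier, and its promoter, shown above, held 4 core matches. It measured 44.3, 48.5, 46.8 and 51.5 CPM in rTMS-MSCs, 39.0, 40.8, 44.1 and 45.8 CPM in MSCs, and 67.8, 76.4, 69.6 and 75.9 CPM in OGDR. Every treated library lay below every OGDR library, while the treated groups overlapped each other. The log2 fold change was -0.77 ± 0.074 (standard error, 1.71-fold lower, adjusted p = 1.24e-07) for MSCs against OGDR and -0.60 ± 0.074 (1.52-fold lower, adjusted p = 3.11e-06) for rTMS-MSCs against OGDR in edgeR.

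Slc2a3 (ENSRNOG00000008376), which encodes the high-affinity neuronal carrier GLUT3, stood at 68.1, 68.3, 65.6 and 72.3 CPM in rTMS-MSCs, 74.9, 73.9, 77.4 and 79.8 CPM in MSCs, and 111, 102, 108 and 107 CPM in OGDR. All 3 groups were apart, with rTMS-MSCs lowest and OGDR highest. Against OGDR, Slc2a3 fell by 0.48 on the log2 scale in MSCs (adjusted p = 2.44e-06) and by 0.64 in rTMS-MSCs (adjusted p = 4.52e-08). Between rTMS-MSCs and MSCs its log2 fold change of -0.16 did not pass the test (adjusted p = 0.0651; 0.0338 to 0.272 over 16 alternative analyses).

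The hexokinases, which phosphorylate glucose on entry, went in opposite directions. Hk2 (ENSRNOG00000006116), the inducible isoenzyme that docks on mitochondria and is a HIF target, measured 65.5, 61.1, 47.7 and 67.0 CPM in rTMS-MSCs, 82.9, 83.3, 93.9 and 74.1 CPM in MSCs, and 99.8, 104, 110.1 and 95.8 CPM in OGDR. No pair of groups overlapped, and library 3 was the lowest of rTMS-MSCs and the highest of MSCs. Hk2 alone among the 34 genes was called in all 3 comparisons.

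Its log2 fold change was -0.29 ± 0.090 for MSCs against OGDR (adjusted p = 0.0252), -0.47 ± 0.092 for rTMS-MSCs against MSCs (adjusted p = 0.00300) and -0.76 ± 0.091 for rTMS-MSCs against OGDR (1.70-fold lower, adjusted p = 2.30e-06). The first of these was fragile. It missed the threshold without MSCs 1 (0.0646), MSCs 2 (0.0534), MSCs 4 (0.0915), OGDR 2 (0.0577) or OGDR 3 (0.0812), within a range of adjusted p from 1.63e-04 to 0.0915 over 16 alternatives.

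Hk1, the constitutive hexokinase, ran the other way, with 353, 379, 376 and 344 CPM in rTMS-MSCs, 333, 382, 339.6 and 342 CPM in MSCs, and 299, 323, 284 and 295 CPM in OGDR. Every treated library exceeded every OGDR library. The rise was 1.16-fold in MSCs (adjusted p = 0.00888) and 1.21-fold in rTMS-MSCs (adjusted p = 0.00111). Gpi, the isomerase of the next step, fell in MSCs against OGDR by 0.27 on the log2 scale (adjusted p = 0.00436), and its log2 fold change in rTMS-MSCs against OGDR was -0.08 (adjusted p = 0.350). Without rTMS-MSCs 3, in which Gpi reached 901 CPM against 711 to 759.9 CPM in the other rTMS-MSCs libraries, that value was -0.16 (adjusted p = 0.0244; 0.0145 to 0.692 over 16 alternatives).

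Phosphofructokinase, the committed step, is made of liver, muscle and platelet subunits. The muscle subunit gene Pfkm (ENSRNOG00000057988) rose, with 85.9, 69.3, 78.7 and 74.6 CPM in rTMS-MSCs, 76.1, 67.7, 74.3 and 72.1 CPM in MSCs, and 50.9, 51.3, 51.3 and 49.2 CPM in OGDR. The OGDR libraries were tightly grouped and lay below all 8 treated ones. Its log2 fold change was 0.52 ± 0.070 in MSCs (1.43-fold, adjusted p = 1.21e-05) and 0.61 ± 0.070 in rTMS-MSCs (1.52-fold, adjusted p = 1.36e-06), both against OGDR. Pfkm overlaps Senp1 in the RefSeq annotation. No annotation of mRatBN7.2, the build used for counting, was at hand, so overlaps named here may differ there. The sources used here do not give the counting strand.

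Pfkl, the liver subunit, fell in MSCs against OGDR by 0.27 on the log2 scale (adjusted p = 0.0117), and Pfkp, the platelet subunit, by 0.14 (adjusted p = 0.0400). Neither was called in rTMS-MSCs against OGDR, at -0.16 for Pfkl (adjusted p = 0.109) and -0.08 for Pfkp (adjusted p = 0.173). The Pfkl call in MSCs was lost without OGDR 2 (adjusted p = 0.0613; 0.00159 to 0.0613 over 16 alternatives). In rTMS-MSCs, Pfkl was called once rTMS-MSCs 3 was left out (log2 fold change -0.23, adjusted p = 0.00628; 0.00447 to 0.354 over 16 alternatives). The Pfkp call in MSCs held in 7 of 16 alternatives (adjusted p from 0.00745 to 0.116) and was lost without MSCs 1, 2 or 3 or OGDR 1, 2 or 4, each left out singly.

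Fructose 2,6-bisphosphate, the strongest activator of phosphofructokinase, is made and broken down by the PFKFB enzymes. Pfkfb4 measured 11.1, 12.2, 10.4 and 11.0 CPM in rTMS-MSCs, 16.1, 14.9, 11.6 and 12.9 CPM in MSCs, and 10.4, 10.5, 9.74 and 8.99 CPM in OGDR. Only the MSCs libraries stood clear of OGDR, with a log2 fold change of 0.48 ± 0.119 (adjusted p = 0.00569), while rTMS-MSCs gave 0.17 against OGDR (adjusted p = 0.291) and -0.31 against MSCs (adjusted p = 0.0725). Pfkfb2 had 5.53, 4.00, 4.77 and 3.91 CPM in rTMS-MSCs, 7.50, 5.18, 6.61 and 6.59 CPM in MSCs, and 7.11, 7.44, 8.73 and 8.26 CPM in OGDR. The rTMS-MSCs group was below OGDR throughout and overlapped MSCs.

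Pfkfb2 fell by 0.79 on the log2 scale in rTMS-MSCs against OGDR (adjusted p = 6.92e-04), and its value in MSCs against OGDR was -0.29 (adjusted p = 0.210). Pfkfb3, the isoenzyme most often named as hypoxia-induced, was called in no comparison, with 28.7 to 45.5 CPM in rTMS-MSCs, 35.6 to 47.4 CPM in MSCs and 37.9 to 45.4 CPM in OGDR.

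**Figure D2:**
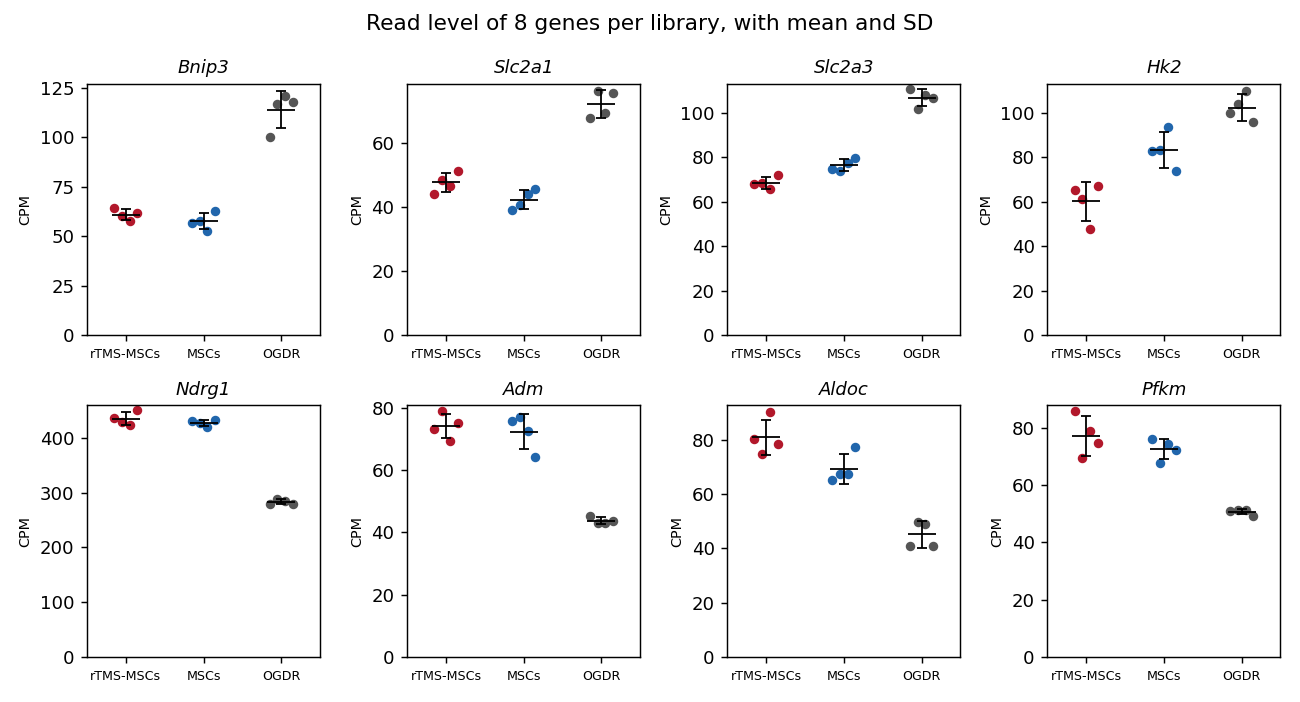
CPM (vertical axis, from 0) of 8 genes in each library of rTMS-MSCs, MSCs and OGDR, with bars for the mean and SD of 4 libraries. The genes of the upper row, Bnip3, Slc2a1, Slc2a3 and Hk2, are lower in all treated libraries than in OGDR, and those of the lower row, Ndrg1, Adm, Aldoc and Pfkm, are higher in all of them.

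In the lower part of the pathway, 6 of 8 measured genes fell in MSCs against OGDR (75.0%, against 8.63% of all genes). Among the others, 1 rose (12.5%, against 11.6%) and 1 was not called. The 6 include Aldoa, whose low counts are described below. Pgk1, which makes the first ATP of glycolysis, measured 1305, 1319, 1432 and 1351 CPM in rTMS-MSCs, 1215, 1282, 1099 and 1309 CPM in MSCs, and 1569, 1692, 1617 and 1566 CPM in OGDR. The OGDR libraries were above all the others, and the treated groups overlapped. Its log2 fold change was -0.39 ± 0.054 in MSCs (adjusted p = 1.54e-05) and -0.25 ± 0.054 in rTMS-MSCs (adjusted p = 0.00134).

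Pkm, the pyruvate kinase gene of the last step, had 2620.0, 2843, 2681 and 2766 CPM in rTMS-MSCs, 2648, 2879.5, 2407 and 2782 CPM in MSCs, and 3086, 3341, 3376 and 3197 CPM in OGDR. It was lower in every treated library and fell by 0.28 on the log2 scale in MSCs (adjusted p = 5.93e-04) and by 0.25 in rTMS-MSCs (adjusted p = 0.00110). Gene counts do not separate its M1 and M2 splice forms. Tpi1, the triose phosphate isomerase, fell by 0.31 in MSCs (adjusted p = 4.82e-04) and by 0.21 in rTMS-MSCs (adjusted p = 0.00897). Its RefSeq annotation overlaps Spsb2.

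Enolase splits into the widespread Eno1 and the neuronal Eno2. Eno2 measured 151, 152, 146 and 148 CPM in rTMS-MSCs, 138, 144, 138 and 146 CPM in MSCs, and 172, 198, 185 and 197 CPM in OGDR. OGDR was highest and no pair of groups overlapped, although the lowest rTMS-MSCs and the highest MSCs value both round to 146 CPM. The log2 fold change was -0.41 ± 0.055 in MSCs (adjusted p = 9.04e-06) and -0.34 ± 0.055 in rTMS-MSCs (adjusted p = 9.10e-05), both against OGDR. Eno1 had 2592, 2680.1, 3244 and 2620.3 CPM in rTMS-MSCs, 2413, 2549, 2345 and 2515 CPM in MSCs, and 3136, 3319.9, 2981 and 2901 CPM in OGDR.

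Eno1 fell by 0.33 in MSCs against OGDR (adjusted p = 6.71e-04). In rTMS-MSCs only library 3 reached the OGDR range, and the log2 fold change against OGDR was -0.15 (adjusted p = 0.0805). Without that library it was -0.23 (adjusted p = 5.36e-04; 2.37e-04 to 0.229 over 16 alternatives).

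Aldolase C ran against its neighbours. Aldoc (ENSRNOG00000011452), the brain aldolase that splits fructose 1,6-bisphosphate, stood at 80.2, 74.8, 90.1 and 78.2 CPM in rTMS-MSCs, 65.2, 67.2, 67.2 and 77.4 CPM in MSCs, and 40.9, 49.7, 49.1 and 40.7 CPM in OGDR. All treated libraries were above OGDR, with the fourth MSCs library inside the rTMS-MSCs range. Aldoc rose 1.54-fold in MSCs (log2 fold change 0.62 ± 0.084, adjusted p = 1.35e-05) and 1.79-fold in rTMS-MSCs (0.84 ± 0.084, adjusted p = 1.88e-07).

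The muscle-type Aldoa had only 1 to 15 counts per library, and RefSeq lists 9 Aldoa pseudogenes. Its RefSeq annotation also overlaps LOC103691235, which has its own row in the count table, so Aldoa values are uncertain. Aldoa was called lower in MSCs than in OGDR (adjusted p = 0.0209), and this call was lost without MSCs 1 (0.0760), MSCs 2 (0.0783) or OGDR 2 (0.0547), within 0.0189 to 0.0783 over 15 alternatives. Pgam1, the phosphoglycerate mutase, was not called in any comparison, at 1342 to 1402 CPM in rTMS-MSCs, 1185 to 1353 CPM in MSCs and 1218 to 1388 CPM in OGDR. RefSeq also names 31 pseudogenes for Eno1, 30 for Ldha, 19 for Pkm and 13 for Pgam1. It names 8 for Pgk1, 8 for Bnip3 and 3 for Tpi1. Such pseudogenes can take up or lend reads. Of the 35 genes, 13 overlap another gene in the RefSeq annotation. For 9 of them, among them Pkm, Pfkfb2, Slc16a3 and Ankrd37, an overlapping gene has its own row in the count table.

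Taken as 1 sum, the 14 tested enzymes from hexokinase to pyruvate kinase held 10705 to 11875 CPM in rTMS-MSCs, 9678 to 10754 CPM in MSCs and 11933 to 13009.9 CPM in OGDR. OGDR lay above both treated groups, which overlapped. The mean was 11133 CPM in rTMS-MSCs, 10312 CPM in MSCs and 12303 CPM in OGDR, given without a test because the genes were chosen with results known. Most of these reads came from Eno1, Pkm, Pgk1 and Pgam1. The sum lacks Gapdh and holds Aldoa at no more than 0.739 CPM.

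**Figure D3:**
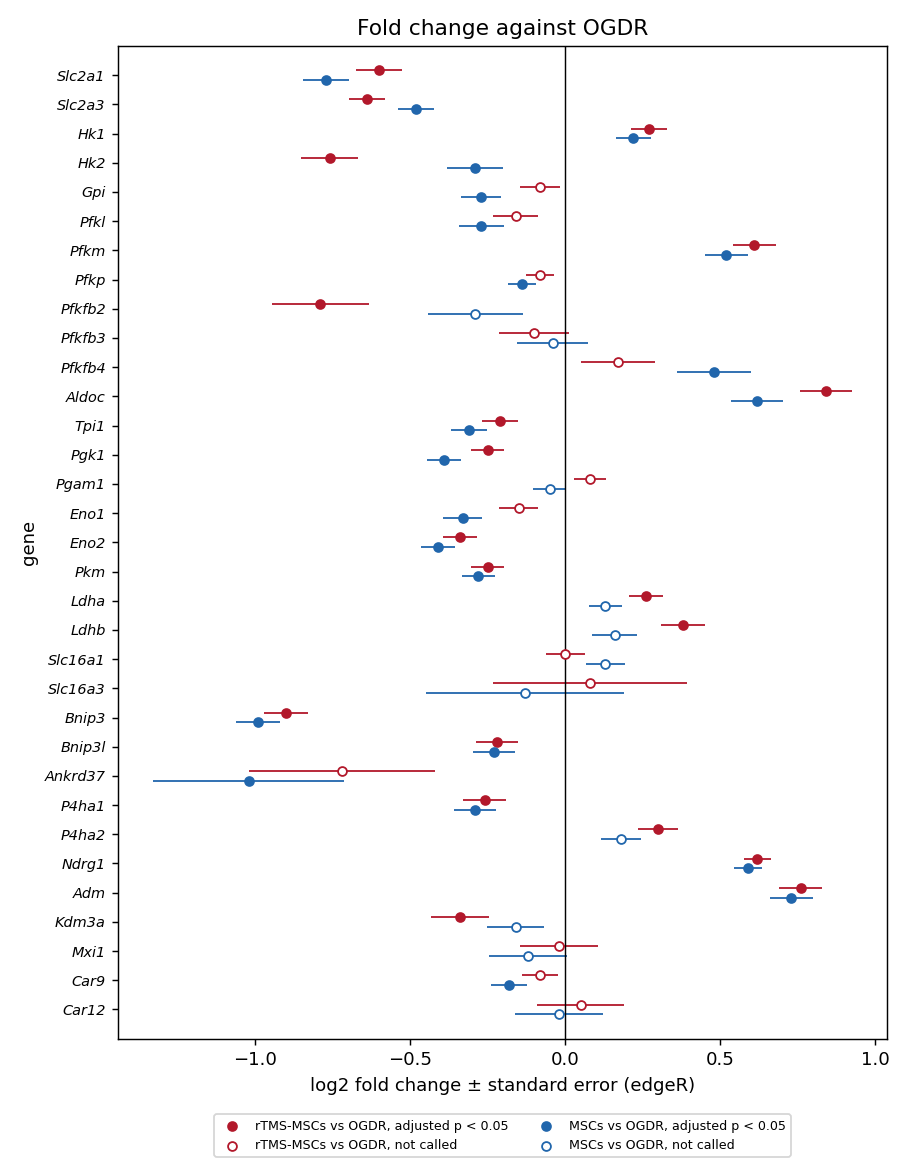
Log2 fold change (horizontal axis, with the standard error) of 33 genes against OGDR, in red for rTMS-MSCs and in blue for MSCs. Filled points passed an adjusted p under 0.05 in edgeR. Aldoa is left out, and points right of 0 are higher than in OGDR.

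Lactate genes did not follow the enzymes before them. Ldha, whose subunit favours lactate formation, measured 2424, 2425, 2833 and 2526 CPM in rTMS-MSCs, 2264, 2406, 2242 and 2428 CPM in MSCs, and 2096, 2269, 2160.3 and 2011 CPM in OGDR. The rTMS-MSCs libraries were all above OGDR, whereas MSCs overlapped both. Ldha rose by 0.26 on the log2 scale in rTMS-MSCs against OGDR (1.20-fold, adjusted p = 0.00118), and in MSCs against OGDR its value was 0.13 (adjusted p = 0.102; 0.0140 to 0.257 over 16 alternatives). The treated groups differed by 0.13, which did not pass the test (adjusted p = 0.104).

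Ldhb, the subunit that favours pyruvate formation, had 104, 109.7, 122 and 99.9 CPM in rTMS-MSCs, 89.8, 97.5, 84.4 and 100.5 CPM in MSCs, and 88.8, 84.1, 77.2 and 83.8 CPM in OGDR. It rose 1.30-fold in rTMS-MSCs against OGDR (adjusted p = 4.11e-04), and MSCs, which overlapped both other groups, gave a log2 fold change of 0.16 against OGDR (adjusted p = 0.138). The carriers Slc16a1 and Slc16a3 encode MCT1 and the export form MCT4, and neither was called in any comparison. Slc16a1 ran from 163 to 198 CPM in rTMS-MSCs, 192 to 214 CPM in MSCs and 173 to 193 CPM in OGDR. Slc16a3 had just 14 to 31 counts per library. Its standard error for MSCs against OGDR was 0.319 on the log2 scale, so small changes could be missed.

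Among the 34 genes, apart from the low-count Aldoa and Ankrd37, the largest called fall against OGDR was that of a mitophagy receptor. Bnip3 (ENSRNOG00000017243), which marks mitochondria for autophagy under hypoxia, measured 64.1, 60.1, 57.5 and 61.7 CPM in rTMS-MSCs, 56.5, 57.8, 52.8 and 62.7 CPM in MSCs, and 99.9, 117, 121 and 118 CPM in OGDR. All 8 treated libraries were far below OGDR and overlapped each other. Its log2 fold change was -0.99 ± 0.072 in MSCs (1.98-fold lower, adjusted p = 1.98e-09) and -0.90 ± 0.072 in rTMS-MSCs (1.87-fold lower, adjusted p = 7.09e-09), both against OGDR.

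The related receptor Bnip3l, also called NIX, moved less. It stood at 80.0, 74.0, 67.7 and 75.8 CPM in rTMS-MSCs, 71.9, 69.2, 74.4 and 81.2 CPM in MSCs, and 87.3, 81.1, 91.0 and 87.5 CPM in OGDR. Only the fourth MSCs library touched the OGDR range, at 81.2 CPM beside an OGDR minimum of 81.1 CPM. Bnip3l fell by 0.23 in MSCs (adjusted p = 0.0219) and by 0.22 in rTMS-MSCs (adjusted p = 0.0166).

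The MSCs call of Bnip3l was lost without MSCs 1 (0.0686), MSCs 2 (0.0775), OGDR 3 (0.0712) or OGDR 4 (0.0511), within an adjusted p of 0.00928 to 0.0775 over 16 alternatives. Its rTMS-MSCs call was lost without OGDR 3 (0.0592; 0.00736 to 0.0592).

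The prolyl hydroxylases that stabilise collagen are tetramers whose alpha subunits come from P4ha1 or P4ha2. P4ha1 had 128, 132, 102 and 119 CPM in rTMS-MSCs, 123, 116, 114 and 118 CPM in MSCs, and 135, 149, 147 and 144 CPM in OGDR. P4ha2 had 83.7, 81.0, 86.0 and 76.5 CPM in rTMS-MSCs, 80.2, 76.9, 73.7 and 70.7 CPM in MSCs, and 68.6, 70.8, 64.1 and 62.8 CPM in OGDR. OGDR was the highest group for P4ha1, while for P4ha2 it lay below all rTMS-MSCs libraries and touched MSCs.

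P4ha1 fell by 0.29 in MSCs (adjusted p = 0.00427) and by 0.26 in rTMS-MSCs (adjusted p = 0.00654). P4ha2 rose by a log2 fold change of 0.30 in rTMS-MSCs against OGDR (adjusted p = 0.00157), and MSCs against OGDR gave 0.18 (adjusted p = 0.0570; 0.0332 to 0.174 over 16 alternatives). P4ha1 overlaps Snrpd2l in the RefSeq annotation.

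Of the 5 genes in signalling and chromatin, Ndrg1 and Adm rose in both treated groups against OGDR, 1 fell in each and 2 were not called. The share that rose was 40.0%, against 11.6% of all genes in MSCs and 16.2% in rTMS-MSCs. The share that fell was 20.0%, against 8.63% in MSCs and 16.2% in rTMS-MSCs. Ndrg1 (ENSRNOG00000007393), a stress-responsive gene linked to myelin upkeep in Schwann cells, measured 436, 429, 424 and 451 CPM in rTMS-MSCs, 431, 428, 420.2 and 432 CPM in MSCs, and 280.1, 289, 285 and 279 CPM in OGDR. The treated groups overlapped each other, and both were far above OGDR. Ndrg1 rose 1.51-fold in MSCs (log2 fold change 0.59 ± 0.045, adjusted p = 3.19e-09) and 1.53-fold in rTMS-MSCs (0.62 ± 0.045, adjusted p = 1.58e-09). The summed Schwann and glial markers given above were also higher in the treated groups, though not every marker was, and their part in the Ndrg1 difference was not tested.

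Adm (ENSRNOG00000027030), which encodes the vasodilator adrenomedullin, had 73.0, 78.9, 69.4 and 74.9 CPM in rTMS-MSCs, 75.6, 76.9, 72.5 and 64.3 CPM in MSCs, and 45.3, 43.0, 42.9 and 43.7 CPM in OGDR. The lowest treated library was well above the highest OGDR library. Adm rose 1.65-fold in MSCs (log2 fold change 0.73 ± 0.069, adjusted p = 1.15e-07) and 1.69-fold in rTMS-MSCs (0.76 ± 0.069, adjusted p = 5.21e-08). Adm was the 1 gene of the 5 shown above with no core match in the 250 bases.

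Kdm3a, a histone demethylase induced by HIF, had 75.3, 66.4, 52.1 and 75.3 CPM in rTMS-MSCs, 80.7, 71.5, 76.2 and 75.9 CPM in MSCs, and 81.5, 78.9, 86.3 and 94.2 CPM in OGDR. Its fall of 0.34 on the log2 scale in rTMS-MSCs against OGDR passed the test (adjusted p = 0.00821), and the value of -0.16 in MSCs did not (adjusted p = 0.239). Without rTMS-MSCs 3, the lowest library, the log2 fold change of Kdm3a in rTMS-MSCs against OGDR was -0.23 (adjusted p = 0.0142). Ankrd37, a small HIF-induced ankyrin protein, had 17 to 76 counts per library. It fell by 1.02 in MSCs against OGDR (adjusted p = 0.0221), a call lost without MSCs 3 (0.0748), MSCs 4 (0.0551) or OGDR 2 (0.0730), within 0.00675 to 0.0748 over 16 alternatives.

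Ankrd37 in rTMS-MSCs gave -0.72 against OGDR (adjusted p = 0.0743), and -0.95 (0.0283) without rTMS-MSCs 3, within 0.0195 to 0.214. Mxi1, a Myc antagonist, was called nowhere, at 14.3 to 19.4 CPM in rTMS-MSCs, 12.7 to 17.8 CPM in MSCs and 15.2 to 19.1 CPM in OGDR.

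The membrane carbonic anhydrases, which handle acid outside the cell, changed little. Car9 had 159, 166, 178 and 167 CPM in rTMS-MSCs, 149.7, 161, 147 and 169 CPM in MSCs, and 175, 189, 172 and 172 CPM in OGDR. Car9 fell by 0.18 in MSCs against OGDR (adjusted p = 0.0357), and without MSCs 1, 2 or 3 or OGDR 1 or 2 the adjusted p was 0.0511 to 0.130 (0.0164 to 0.130 over 16 alternatives). Car12 was called in no comparison, at 8.52 to 10.1 CPM in rTMS-MSCs, 7.86 to 9.47 CPM in MSCs and 6.92 to 11.2 CPM in OGDR.

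Stimulation on top of stem cells was read from rTMS-MSCs against MSCs. Here 4 of 34 genes were called (11.8%), fewer than the 18.1% of all tested genes, with Gpi and Ldhb higher (5.88%, against 7.14% of all genes) and Hk2 and Pfkfb2 lower (5.88%, against 10.9%). The groups were apart for 4 genes (11.8%, against 19.0% of all genes), with Slc2a3 and Hk2 lower and Eno1 and Eno2 higher. The median log2 fold change was 0.09 over the 34 genes and 0.015 over all tested genes.

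Hk2 was the gene whose call held in all 16 alternatives, at log2 fold changes of -0.52 to -0.31 and adjusted p of 1.45e-05 to 0.0188. Its value was -0.37 (adjusted p = 0.00247) without rTMS-MSCs 3 and -0.31 (adjusted p = 0.00997) without library 3 of both groups. The other calls did not hold without them, where Gpi had a log2 fold change of 0.08 (adjusted p = 0.408) against 0.19 (0.0481) in all libraries and Ldhb 0.12 (0.317) against 0.23 (0.0351). Pfkfb2 had -0.52 (0.112) without them and -0.51 (0.0341) with them.

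Leaving out single libraries also ended these calls. Gpi was lost without MSCs 1, 3 or 4 or rTMS-MSCs 2 or 3, Ldhb without MSCs 1 or 3 or rTMS-MSCs 2 or 3, and Pfkfb2 without MSCs 1, 3 or 4 or rTMS-MSCs 2, 3 or 4. Over the 16 alternatives the adjusted p ran from 0.0242 to 0.408 for Gpi, 0.0160 to 0.317 for Ldhb and 0.0165 to 0.114 for Pfkfb2. Eno1 was just outside the threshold (log2 fold change 0.18, adjusted p = 0.0516) and passed in 7 alternatives, among them without rTMS-MSCs 1 (0.0351) and without rTMS-MSCs 4 (0.0300), within 0.0217 to 0.383. Without rTMS-MSCs 3 its value was 0.10 (adjusted p = 0.167), and without library 3 of both groups it was 0.08 (adjusted p = 0.383).

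**Figure D4:**
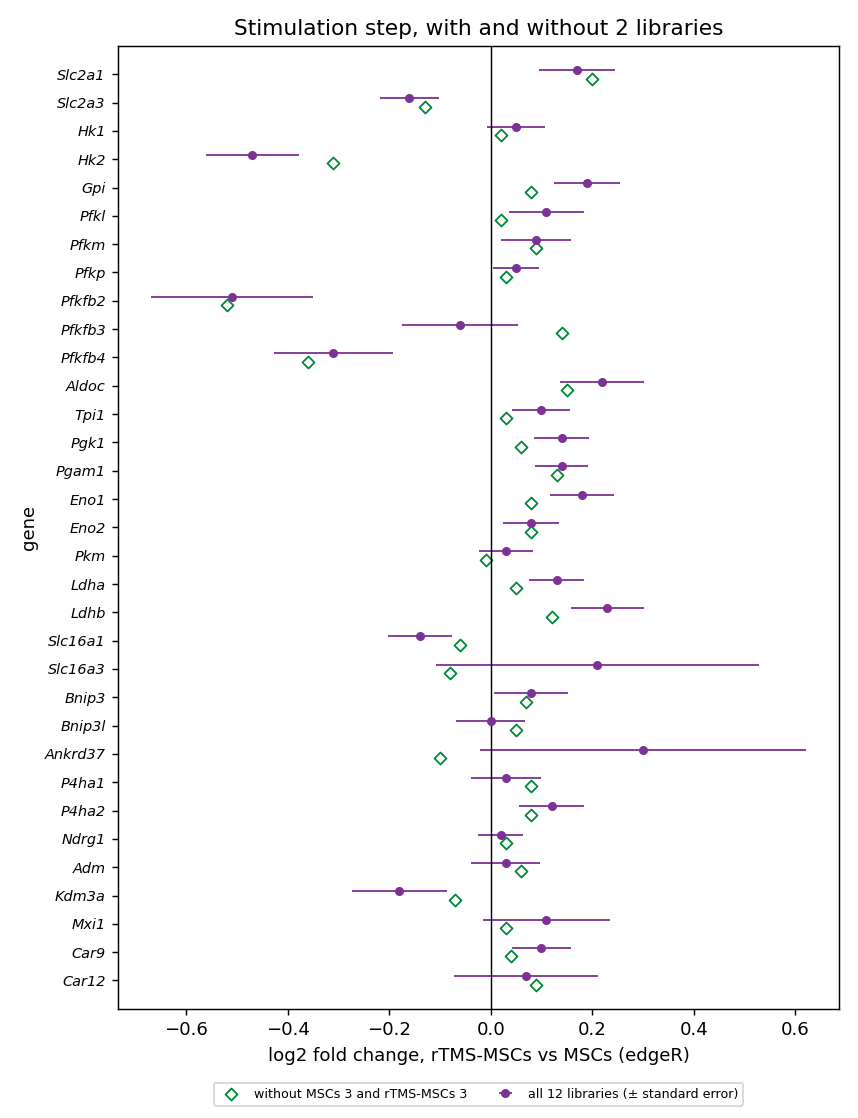
Log2 fold change of 33 genes for rTMS-MSCs against MSCs (horizontal axis), as filled points with the standard error from all 12 libraries and as open diamonds without library 3 of both groups. Hk2 lies left of 0 in both, at -0.47 and -0.31, and most diamonds of the glycolytic enzymes lie nearer to 0 than the points. Aldoa is left out.

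Within isoenzyme pairs, the ratio of reads in the same library shows unequal change without a library scale. Hk2 over Hk1 was 0.167 ± 0.0304 in rTMS-MSCs, 0.240 ± 0.0286 in MSCs and 0.341 ± 0.0313 in OGDR (SD, n = 4 each), with no overlap between groups. Pfkm over Pfkl was 0.278 ± 0.0344 in rTMS-MSCs, 0.281 ± 0.0193 in MSCs and 0.164 ± 0.0129 in OGDR. Bnip3 over Bnip3l was 0.819 ± 0.0205 in rTMS-MSCs, 0.776 ± 0.0521 in MSCs and 1.32 ± 0.123 in OGDR.

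For these last pairs the treated groups overlapped each other and both were clear of OGDR. P4ha2 over P4ha1 was likewise clear, at 0.614 to 0.842 in rTMS-MSCs, 0.600 to 0.660 in MSCs and 0.435 to 0.506 in OGDR. Slc2a1 over Slc2a3 was lowest in MSCs, at 0.521 to 0.574, with 0.650 to 0.712 in rTMS-MSCs and 0.609 to 0.752 in OGDR. Ldhb over Ldha overlapped among all groups, at 0.0395 to 0.0453 in rTMS-MSCs, 0.0376 to 0.0414 in MSCs and 0.0358 to 0.0423 in OGDR.

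**Figure D5:**
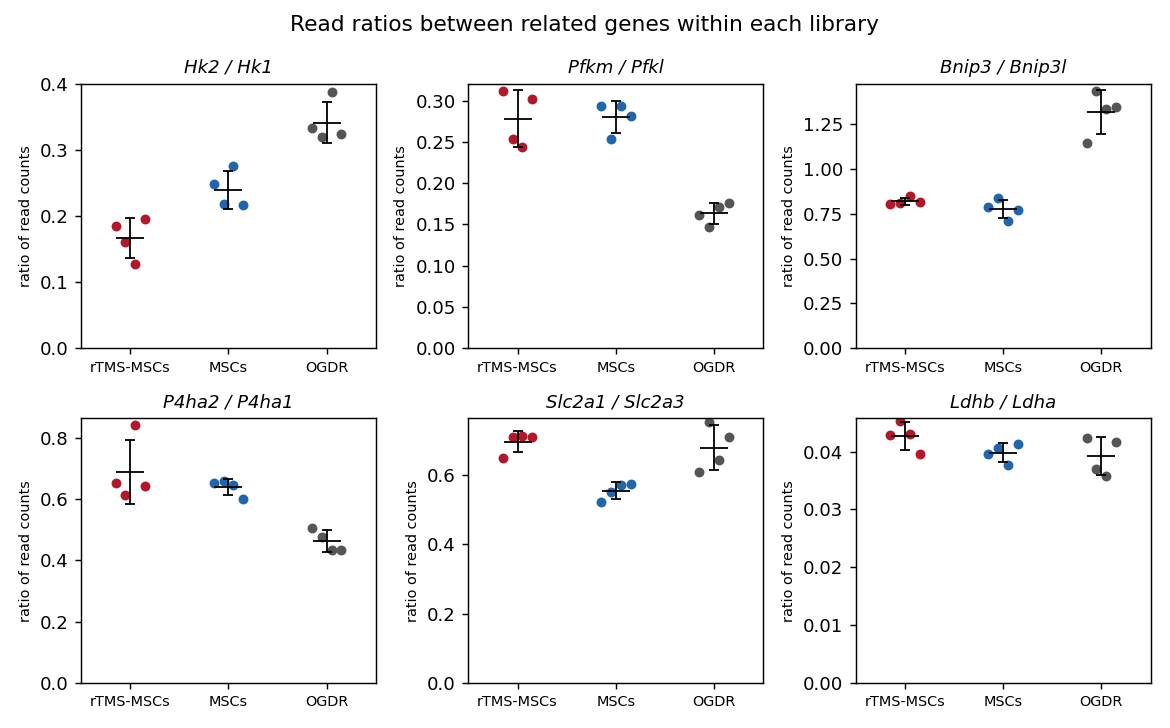
Ratio of read counts between related genes in each library (vertical axes, from 0), with bars for the mean and SD of 4 libraries per group. The Hk2 to Hk1 ratio is lowest in rTMS-MSCs and highest in OGDR, and the Pfkm to Pfkl and P4ha2 to P4ha1 ratios are higher in both treated groups than in OGDR. Ratios depend on gene length, so only differences between groups can be read.

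Other genes of these pathways are given by the share called, beside the share of all tested genes. These lists, too, were chosen with earlier results known, so the shares are a description and no test. List results are from all 12 libraries. Of other hypoxia targets, 52 genes were tested in 53 rows, and percentages here set called rows over the 52 genes. In MSCs against OGDR, 10 rows rose (19.2%, against 11.6% of all genes) and 19 fell (36.5%, against 8.63%), with a median log2 fold change of -0.17. In rTMS-MSCs against OGDR, 11 rose (21.2%, against 16.2%) and 21 fell (40.4%, against 16.2%), with a median of -0.12. In rTMS-MSCs against MSCs, 5 rose and 4 fell (17.3%, near the 18.1% of all genes), with a median of 0.01. Ddit4, an mTORC1 inhibitor, rose in MSCs against OGDR with a log2 fold change of 1.27 (adjusted p = 2.11e-12), and Hmox1, heme oxygenase, fell by 0.78 (adjusted p = 4.49e-09). Tfrc, the transferrin receptor, fell by 1.10 in rTMS-MSCs against OGDR (adjusted p = 1.21e-09).

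Among 8 tested HIF subunits and oxygen sensors, 2 rose and 2 fell in MSCs against OGDR (50.0%, against 20.2% of all genes) and 3 rose and 3 fell in rTMS-MSCs against OGDR (75.0%, against 32.4%). In rTMS-MSCs against MSCs, 1 rose and 1 fell (25.0%, against 18.1%). Hif1a, the inducible HIF subunit, averaged 115 CPM in rTMS-MSCs, 146 CPM in MSCs and 205 CPM in OGDR, and Vhl, which targets it for degradation, averaged 80.8 CPM in rTMS-MSCs, 77.8 CPM in MSCs and 48.7 CPM in OGDR. Hif1a fell by 0.49 in MSCs (adjusted p = 0.00128) and by 0.83 in rTMS-MSCs (adjusted p = 2.69e-06) against OGDR, and Vhl rose, with a log2 fold change of 0.68 in MSCs (adjusted p = 1.85e-07) and 0.73 in rTMS-MSCs (adjusted p = 5.48e-08).

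Of 26 other glycolysis genes tested, 4 rose and 1 fell in MSCs against OGDR (19.2%, against 20.2% of all genes), 6 rose and 3 fell in rTMS-MSCs against OGDR (34.6%, against 32.4%), and 2 rose and 1 fell in rTMS-MSCs against MSCs (11.5%, against 18.1%). None of these shares was above that of all genes by more than a few points. Gpd1, the glycerol 3-phosphate dehydrogenase that draws off dihydroxyacetone phosphate, averaged 529 CPM in rTMS-MSCs, 519 CPM in MSCs and 84.2 CPM in OGDR. Its log2 fold change against OGDR was 2.62 in MSCs (adjusted p = 8.34e-17) and 2.65 in rTMS-MSCs (adjusted p = 4.62e-17). The mitochondrial partner Gpd2 fell by 0.41 in rTMS-MSCs against MSCs (adjusted p = 0.00577), a value not given here without library 3 of both groups.

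Where pyruvate enters mitochondria, 25 genes of its oxidation and the citrate cycle were tested, of which 3 rose and 2 fell in MSCs against OGDR (20.0%, against 20.2% of all genes) and 6 rose and 2 fell in rTMS-MSCs against OGDR (32.0%, against 32.4%). These shares are those of all genes and show nothing particular to the list. In rTMS-MSCs against MSCs, 3 rose and 1 fell, where 18.1% of all genes were called. The kinases that switch off pyruvate dehydrogenase split, with Pdk2 at a log2 fold change of 0.76 (adjusted p = 2.01e-06) and Pdk1 at -0.73 (adjusted p = 2.64e-05) in MSCs against OGDR. Of 14 tested genes in the pentose phosphate, hexosamine and serine branches, 2 rose and 6 fell in MSCs against OGDR (57.1%, against 20.2% of all genes), 2 rose and 4 fell in rTMS-MSCs against OGDR (42.9%, against 32.4%), and 2 rose and 1 fell in rTMS-MSCs against MSCs (21.4%, against 18.1%). Shmt2, the mitochondrial serine hydroxymethyltransferase, fell by 0.45 in MSCs (adjusted p = 3.82e-06) and by 0.39 in rTMS-MSCs (adjusted p = 2.10e-05).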

How the data were processed

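The deposited table holds raw read counts per gene. Per the submitters' processing notes, HISAT2 2.1.0, HTSeq 0.11.2 and DESeq2 1.40.1 were used with the rat build mRatBN7.2. Per the labels' protocols, messenger RNA was captured with oligo(dT). Summary lines for reads on no gene (51.73% to 52.71% of the table's reads) entered neither the library sizes nor any test.

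The counts were analysed in R 4.3.3. Low counts were filtered with filterByExpr (edgeR 4.0.16; minimum count 10, minimum total 15), libraries were scaled by TMM, and counts were fitted with 1 quasi-likelihood model, a mean per group, over all 12 libraries. P-values were adjusted by Benjamini-Hochberg over 13692 genes, with a threshold of 0.05. The code was tested on simulated data.

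The members and lists were chosen with earlier results of these data known. All members are named. Of each pathway list, up to 3 called genes per comparison with the smallest p were eligible, and a selection of these is given. Alternatives were other scalings, filters, DESeq2 1.42.0, fits of 8 libraries, a replicate block, and leaving out libraries. No replicate pair agreed within counting noise (chi-square per degree of freedom 4.024 to 24.85). Macrophage and endothelial markers were also summed, at 64.4 to 78.0 and 84.4 to 93.8 CPM in rTMS-MSCs, 51.3 to 66.8 and 89.6 to 96.8 CPM in MSCs, and 51.9 to 59.9 and 88.1 to 102 CPM in OGDR. Promoters came from RefSeq (GRCr8).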

Additional observations from a re-analysis of the deposited data

Results flagged for a closer look

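Of 102 sets of 4 libraries (34 genes in 3 groups), 3 held a library whose gap to its nearest neighbour passed Dixon's critical value, where chance flags about 1 in 20. Eno1 reached 3244 CPM in rTMS-MSCs 3, with the next library at 2680.1 CPM. Aldoc reached 77.4 CPM in MSCs 4, with the next at 67.2 CPM. Car12 stood at 7.86 CPM in MSCs 4, with the next at 9.37 CPM.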

How the results depend on the processing

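Of the calls among the 34 genes, 16 of 23 in MSCs against OGDR, 19 of 20 in rTMS-MSCs against OGDR and 1 of 4 in rTMS-MSCs against MSCs held in all 16 alternatives, and no called change turned direction. For rTMS-MSCs against MSCs, 4 genes were called in the reported analysis, against 8 with DESeq2, 7 with upper quartile scaling, 1 in the fit of the 8 compared libraries and 2 with a replicate block. Without library 3 of both groups, an alternative chosen after seeing the data, 1 gene was called, and 677 of all tested genes were called (154 higher, 523 lower) against 2475. The cause was not tested.

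Leaving out 1 library gave 18 to 22 of the 34 genes and 2243 to 2614 of all genes in MSCs against OGDR, 1 to 5 and 1006 to 3196 in rTMS-MSCs against MSCs, and 19 to 24 and 3461 to 4683 in rTMS-MSCs against OGDR. In rTMS-MSCs against MSCs the count of all genes was 1313 without MSCs 1, 1006 without MSCs 3 and 1480 without rTMS-MSCs 3. Same-numbered libraries correlated at -0.205 to 0.128, and not every library correlated best with its own number, so the numbers were not used to pair. With a replicate block, 21 of the 34 genes were called in MSCs against OGDR (Hk2 at 0.0522 and Pfkp at 0.0564 missed) and 20 in rTMS-MSCs against OGDR. Depth limits Aldoa, Slc16a3 and Ankrd37.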
